A study of Homo sapiens with 24 samples.

Results

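The somatostatin system was examined through SST, which encodes the peptide somatostatin, and 4 of its receptor genes, SSTR1, SSTR2, SSTR3 and SSTR5. All probe sets annotated to these 5 genes were taken, which gave 9 of the 54613 probe sets that are not array controls. They stand beside 19775 named genes in all. The genes were picked because SSTR2 was already known to be among the largest rises at 96 h in these data, so the values of all 5 genes are given as a description, with no test.

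RNA came from D425, an established human medulloblastoma cell line grown in MEM with fetal calf serum, and each sample was hybridised to 1 Affymetrix U133 Plus 2.0 array. The 18 arrays labelled shOTX2 came from D425 cells that carry a doxycycline-inducible short hairpin RNA against OTX2, a homeobox transcription factor gene, in 3 independent time courses. The other 6 arrays came from 1 course of D425 cells labelled control, and the labels do not state what these cells carried. Every course was sampled at 0, 8, 16, 24, 48 and 96 h after doxycycline, so the shOTX2 arm has n = 3 and the control arm 1 array at each time, and the control values have no replicate. Signals are MAS5 values on a linear scale with no unit, scaled by array, and the median probe set of an array read between 16.3 and 20.6. On its brighter probe set, OTX2 itself had a 96 h mean at 89.9% of that at 0 h (4188 ± 302 and 4659 ± 217, SD, n = 3), a change that limma did not call (adjusted p = 0.172). On its dimmer one the 96 h mean stood at 109%, so this transcript does not check the labels, and the arms are named by their labels throughout.

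Somatostatin is a secreted peptide hormone and neuropeptide that acts through receptors coupled to inhibitory G proteins. These receptors lower adenylyl cyclase activity and cAMP, open inwardly rectifying potassium channels and close voltage-gated calcium channels, and kinases and arrestins then switch them off. Somatostatin receptors are found in the developing cerebellum, and SSTR2, the receptor bound by octreotide, is known in medulloblastoma and serves as a target for imaging.

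The 250 bases upstream of the annotated start of SST and of SSTR2 are shown because SSTR2 signal rose late in the shOTX2 arm while SST signal stayed near or below the array median. Both are RefSeq sequences of GRCh38.p14, written 5′ to 3′ on the strand of the gene. The SST window is chr3:187670395-187670644 on the minus strand, and the SSTR2 window is chr17:73164760-73165009 on the plus strand. Capitals mark the letters of the cAMP response element, the sequence bound by CREB, for which the SST gene is a textbook example.
SST: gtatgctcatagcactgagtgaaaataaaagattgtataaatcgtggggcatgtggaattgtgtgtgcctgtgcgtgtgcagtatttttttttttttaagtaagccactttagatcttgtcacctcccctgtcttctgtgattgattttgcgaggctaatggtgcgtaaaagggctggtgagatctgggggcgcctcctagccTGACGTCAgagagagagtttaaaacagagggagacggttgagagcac
SSTR2: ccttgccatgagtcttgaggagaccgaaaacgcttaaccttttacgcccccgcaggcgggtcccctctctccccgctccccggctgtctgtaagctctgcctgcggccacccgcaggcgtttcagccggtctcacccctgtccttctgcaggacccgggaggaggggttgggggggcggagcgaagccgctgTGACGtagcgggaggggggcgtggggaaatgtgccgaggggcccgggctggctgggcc
The complete element TGACGTCA, which reads the same on both strands, lay 47 to 40 bases before the SST start and in no other window of the 5 genes, of which SSTR3 has 2. Among all 35116 windows of this length, 1.65% hold it. Its shorter core TGACG, searched on both strands, lay 58 to 54 bases before the SSTR2 start on the gene's own strand, and in SST it overlaps the complete element. The core is common, with 21.2% of all windows holding it. TAATCC, the letters bound by OTX and CRX homeobox proteins, was searched on both strands and was in none of the windows of the 5 genes, against 5.62% of all windows. These matches are descriptions of letters and were not tied to any measured binding. The GC content of the windows was 45.6% for SST, 43.6% for SSTR1, 69.2% for SSTR2, 68.4% and 54.0% for SSTR3 and 62.4% for SSTR5, with a median of 58.0% over all windows.

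SSTR2 signal was low for the first 24 h after doxycycline and then rose steeply in all 3 shOTX2 courses. On probe set 217455_s_at, the brightest of its 3 and the one that represents the gene, the signal at 0 h was 24.3, 13.7 and 39.3 in courses 1, 2 and 3. It was 19.4, 9.9 and 29.9 at 8 h, 21.0, 33.0 and 48.5 at 16 h, and 59.1, 37.8 and 48.5 at 24 h. Up to there the arrays of each time overlapped those of 0 h. At 48 h the signal was 898.0, 619.9 and 976.0, and at 96 h it was 2607.3, 1641.2 and 1808.6. Each 96 h array lay above each 48 h array, and each 48 h array above each earlier one. The 6 control arrays read 45.5, 44.6, 48.4, 72.9, 67.1 and 63.8 from 0 to 96 h, and all 3 shOTX2 arrays at 0 h were below the control array of that time.

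The mean went from 25.8 ± 12.9 (SD, n = 3) before induction to 48.5 ± 10.7 after 24 h, 831 ± 187 after 48 h and 2019 ± 516 after 96 h. The 96 h mean was 78.4 times the 0 h mean, and the lowest 96 h array was 41.8 times the highest 0 h array. On the scale of log2(signal + 16), used for all log2 changes and tests here, the change from 0 to 96 h was 6.02, 5.80 and 5.04 in the 3 courses, a mean of 5.62 (SD 0.51). Adding 16 keeps noise in dim signals from dominating and makes the change of dim genes look smaller: with 4 added the mean change was 6.15, and with 64 it was 4.52. The control course changed by 0.38 on this scale, from 45.5 to 63.8.

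The other SSTR2 probe sets followed the same course. On 239031_at the signal was 25.6, 26.3 and 54.9 at 0 h, 467.5, 361.4 and 705.2 at 48 h, and 1607.4, 1298.4 and 1339.3 at 96 h. Between 8 and 24 h it stayed between 22.1 and 51.9. On 214597_at the signal was 25.3, 19.0 and 15.5 at 0 h, 333.8, 227.2 and 354.9 at 48 h, and 1094.9, 827.0 and 889.9 at 96 h. Between 8 and 24 h it stayed between 16.6 and 30.7. The control course read 38.0 to 72.4 on 239031_at and 27.3 to 55.0 on 214597_at. The 96 h means were 39.7 and 47.0 times the 0 h means, with mean log2 changes of 4.83 (SD 0.53) and 4.73 (SD 0.13).

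On all 3 probe sets the lowest shOTX2 array at 48 h and at 96 h lay above every 0 h array and above every control array. At 24 h every shOTX2 array lay below the control array of that time on each of the 3. Of the 13903 genes tested by limma, 33.3% were called at 48 h against 0 h and 43.6% at 96 h, where called means a Benjamini-Hochberg adjusted p under 0.05. SSTR2 was chosen from the same change, so nothing is read from its place against these shares. Over the 24 arrays the 3 probe sets correlated with each other at r of 0.984 to 0.990 on the log2 scale. Over the 9 shOTX2 arrays of 0 to 16 h the r values were 0.23, 0.16 and 0.79, and over the 6 arrays of 48 and 96 h they were between 0.97 and 0.99. These r values describe probe sets read on the same arrays and carry no test.

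**Figure D1:**
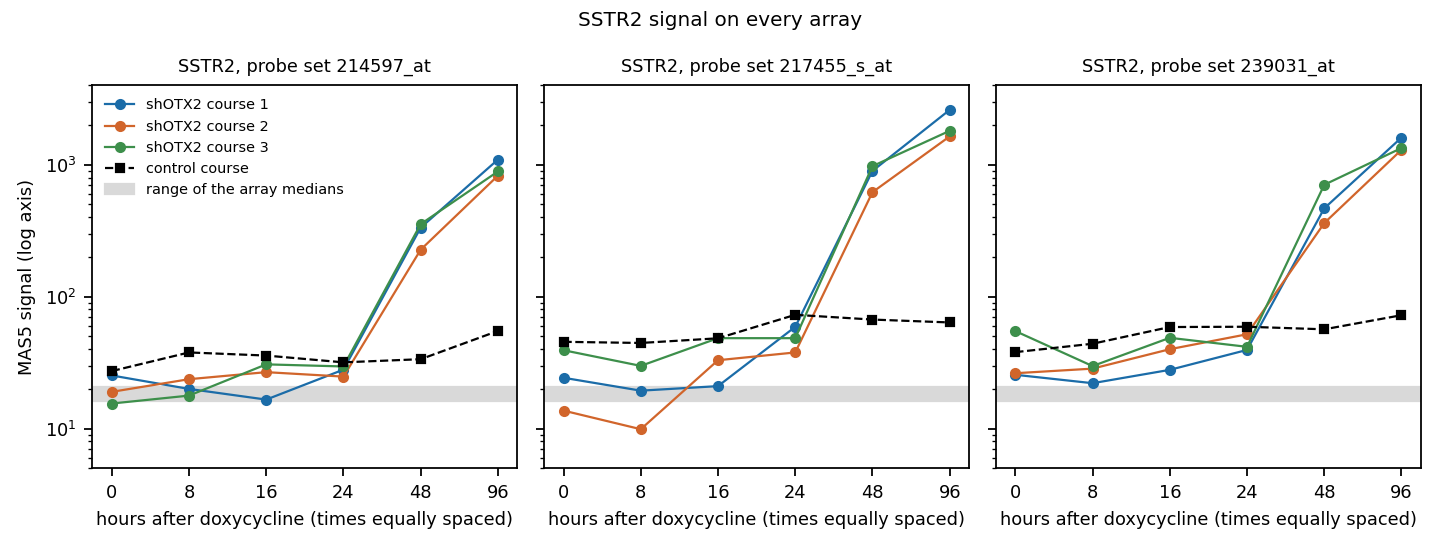
MAS5 signal of the 3 SSTR2 probe sets on every array, on a log axis, against hours after doxycycline, drawn at equal spacing. Coloured circles are the 3 shOTX2 courses, black squares the control course and the grey band the range of the array medians (16.3 to 20.6); the circles stay under 60 up to 24 h, lie between 227.2 and 976.0 at 48 h and between 827.0 and 2607.3 at 96 h.

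On the log2 scale, most of the rise of SSTR2 fell between 24 and 48 h. In this interval 217455_s_at rose 15.2, 16.4 and 20.1 times in the 3 courses, a mean log2 change of 3.70 (SD 0.21). From 48 to 96 h it rose 2.90, 2.65 and 1.85 times, a mean log2 change of 1.26 (SD 0.34). On the linear scale, the mean of each of the 3 probe sets gained more from 48 to 96 h than from 24 to 48 h. From 0 to 24 h the mean log2 change was 0.66 (SD 0.38), and the control course changed by 0.53 over the same hours. SSTR2 had reached 11.7% of its own 96 h log2 change at 24 h and 77.6% at 48 h. The other 43 genes with a log2 change of at least 4 at 96 h had reached a median of 21.5% at 24 h (range -2.97% to 86.4%) and 75.1% at 48 h (range 26.6% to 120%). At 24 h 14 of the 43 were below SSTR2 on this measure, and at 48 h 24 were. By log2 change from 0 h, SSTR2 held rank 12354 of 13903 genes at 8 h, rank 418 at 24 h, rank 9 at 48 h and rank 5 at 96 h. SSTR2 was chosen for its large change at 96 h, so nothing is read from its late ranks. The 43 genes were also picked by their 96 h change, and the comparison with them is a description.

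SSTR1, another receptor of the family, gave a late and much dimmer signal on 1 of its 2 probe sets. Probe set 235591_at read 1.3, 0.3 and 2.8 at 0 h, 13.2, 7.4 and 20.1 at 48 h, and 13.1, 27.8 and 28.1 at 96 h. The 48 h and 96 h arrays lay above every 0 h array, and the 96 h arrays also above every control array, which read between 1.5 and 9.7. The mean log2 change at 96 h was 1.14 (SD 0.35), with 0.75, 1.43 and 1.23 in the 3 courses, and -0.13 in the control course. It was 2.27 with 4 added to the signal and 0.41 with 64 added, so its size depends on how such dim values are treated. Only 3 of the 24 arrays were above their array median, namely those of course 3 at 48 h and of courses 2 and 3 at 96 h, and it passed the filter of 3 arrays through the times at which it was high. Probe set 208482_at read between 0.4 and 7.4 on all 24 arrays, with 1.9, 0.4 and 7.4 at 0 h and 1.1, 1.4 and 0.7 at 96 h. The 2 SSTR1 probe sets therefore differed, and the second was never above the array median.

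SST itself stayed dim. Its probe set 213921_at read 5.1, 16.5 and 19.2 at 0 h and 11.8, 15.9 and 16.6 at 96 h, a mean log2 change of 0.087 (SD 0.27), with no time at which the groups parted. Over the 18 shOTX2 arrays the lowest value was 2.0, the median 9.6 and the highest 19.9, and the control course ranged from 1.6 to 17.3. It exceeded the array median on 2 of 24 arrays and did not pass the filter.

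SSTR3, a receptor known from neuronal cilia, gave dim signals that varied between courses. Probe set 1553178_a_at lay above the array median on 17 of 24 arrays and never above 35.1. It read 17.6, 3.4 and 31.1 at 0 h and 29.5, 14.7 and 25.1 at 96 h, which overlap, and the mean log2 change was 0.30 (SD 0.45). The control course read 27.1 at 0 h and 34.4 at 96 h on it. Its other probe set, 214491_at, was above the array median on 1 of 24 arrays and read 6.1, 24.7 and 2.9 at 0 h and 2.7, 5.2 and 2.4 at 96 h, a mean log2 change of -0.41 (SD 0.47) of which course 2 gave the largest, -0.94. SSTR5 read between 0.8 and 14.5 on all 24 arrays and was never above the array median, with a mean log2 change of -0.13 (SD 0.34) at 96 h. SSTR4, a receptor gene outside the 5, also read below the median throughout, between 1.4 and 12.8. In all, 5 of the 9 probe sets and 3 of the 5 genes passed the filter. At 96 h, 4 of the 9 probe sets lay above their 0 h arrays with no overlap and 0 below. The choice of genes used the change of SSTR2, which holds 3 of the 4, and the other is SSTR1 235591_at, so nothing is read from this count. Of all tested genes, limma called 21.1% higher and 22.5% lower, a share of genes past an adjusted p and so another measure than probe sets without overlap.

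**Figure D2:**
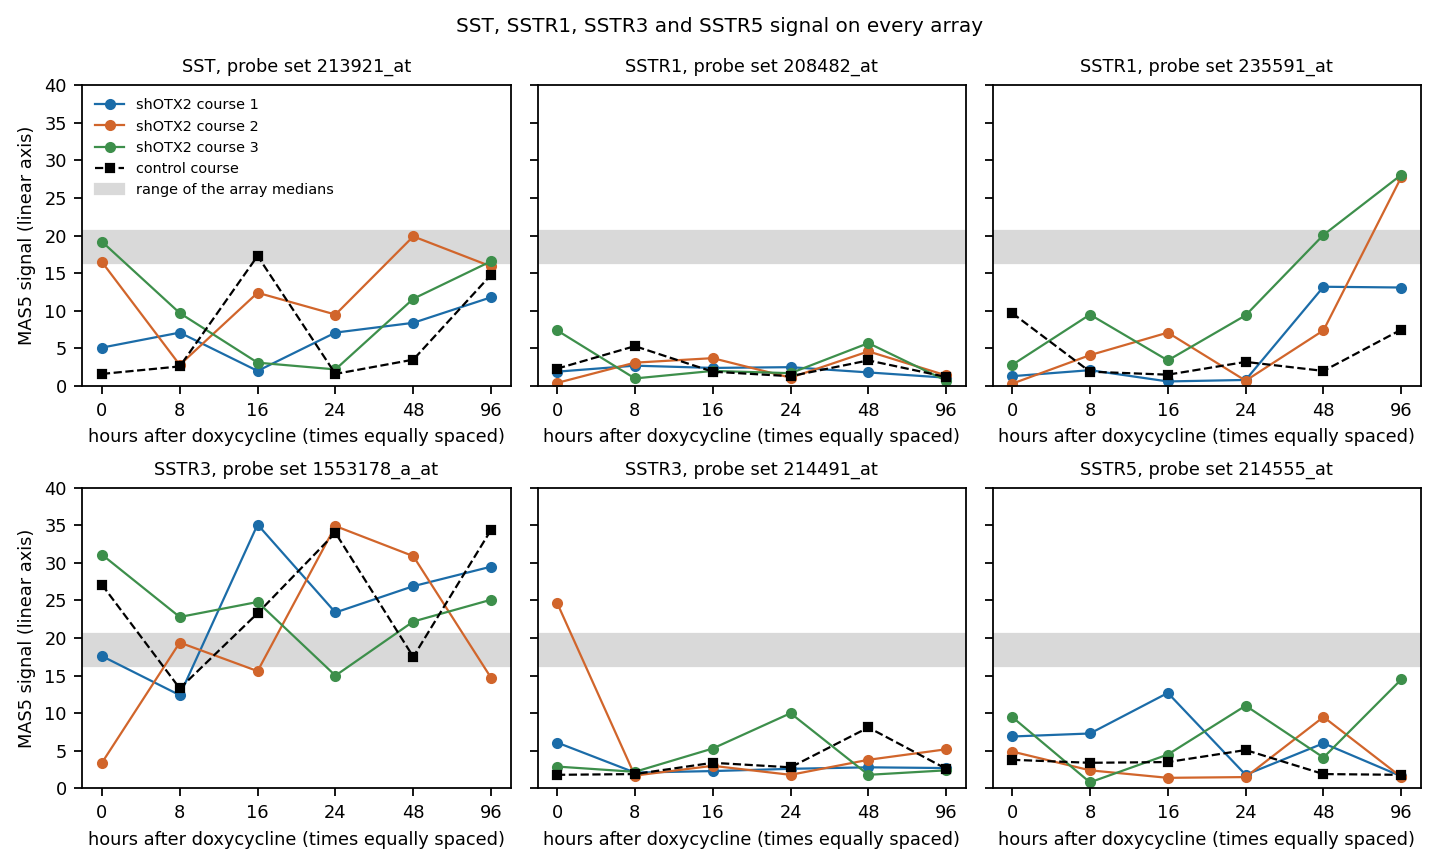
MAS5 signal of the SST, SSTR1, SSTR3 and SSTR5 probe sets on every array, on a linear axis from 0, against hours after doxycycline, drawn at equal spacing. Coloured circles are the 3 shOTX2 courses, black squares the control course and the grey band the range of the array medians; SSTR1 235591_at reaches 13.1 to 28.1 at 96 h, and on the other panels the shOTX2 arrays of 96 h overlap those of 0 h.

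The genes that make, carry and switch off somatostatin signals were followed in a list of 102 genes ordered by role, of which 94 could be matched to a probe set and 76 entered the tests. In the shOTX2 arm 7 of the 76, or 9.21%, were called higher by limma at 24 h and 0 lower, against 3.45% of all genes called higher and 2.7% lower (6.15% in all). At an unadjusted p under 0.05, 7 of the 76 were lower, and the share of all genes at that threshold is not given here, so nothing is read from this count. With the time course as a block 9 were called higher and 4 lower, and without course 2 they were 2 and 0. At 48 h 14 were higher and 11 lower, against 33.3% of all genes called, and after median centring of the arrays 12 and 15. At 96 h 21 were higher and 17 lower, against 43.6% of all genes, with a median log2 change of 0.076 against -8.83e-05 over all genes. Without course 2 these were 13 and 10. The change at 96 h differed from that of the control course for 14 of the 76, or 18.4%, with 7 higher and 7 lower, against 13.7% of all genes (6.28% higher and 7.43% lower), and without course 2 for 5 higher and 2 lower. These shares lie near those of all genes, so the members of the list are given by role and one by one. In bulk RNA, a change in the number of cells of a kind and a change of RNA per cell cannot be told apart.

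Of the 9 tested genes for ligands and peptide processing, 6 were higher and 1 lower at 96 h, against 21.1% of all genes called higher and 22.5% lower, with a median log2 change of 0.74. The 3 with the largest rises encode granins, proteins of the dense-core granules in which neuropeptides such as somatostatin are stored. SCG3, a granin that sorts cargo into granules, read 32.2, 40.2 and 26.7 at 0 h and 606.4, 487.2 and 450.6 at 96 h, a log2 change of 3.43 (SE 0.20, limma adjusted p = 5.22e-10). The control course read 11.0 at 0 h and 50.9 at 96 h, and the difference between the arms was 2.13 (adjusted p = 0.00177). CHGB, chromogranin B, read 13.0, 3.9 and 10.6 at 0 h and 198.7, 153.3 and 143.0 at 96 h, a log2 change of 2.85 (adjusted p = 2.45e-08), and the control course read 20.1 and 22.8. CHGA, chromogranin A, rose from 23.9 ± 10.5 to 105 ± 9.98 (adjusted p = 0.000580), but its difference between the arms was not called (1.83, adjusted p = 0.0812), and was with the course as a block (0.0355). CORT, the related peptide cortistatin that binds the same receptors, read 20.6 ± 14.9 at 0 h and 22.03 ± 4.69 at 96 h (adjusted p = 0.779). PAM, the enzyme that amidates peptides, had a log2 change of -0.46 (adjusted p = 0.0314), which was lost when any course was left out (adjusted p between 0.0642 and 0.148).

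Among the 18 tested subunits of inhibitory G proteins, 1 was higher and 5 lower at 96 h, or 33.3% called against 43.6% of all genes. The 3 named falls were of beta subunits, which with gamma subunits carry the signal to potassium and calcium channels. GNB3 fell from 467 ± 159 to 146 ± 33.9, GNB5 from 238 ± 56.7 to 86.7 ± 10.3 and GNB4 from 344 ± 26.6 to 134 ± 10.6, with log2 changes of -1.54, -1.29 and -1.27 (adjusted p = 0.000143, 1.36e-05 and 1.24e-06). The difference from the control course was called for GNB5 (-1.75, adjusted p = 0.00340) and GNB3 (-2.26, adjusted p = 0.00914, and 0.0521 without course 2), and not for GNB4 (-0.51, adjusted p = 0.291). Part of it came from the control course, which rose from 207.5 to 291.2 for GNB5 and from 270.2 to 454.3 for GNB3. For GNB4 the control course fell from 383.0 to 220.7. GNAI2, an inhibitory alpha subunit, read 22.3 ± 6.25 and 51.2 ± 17.0, and its call (adjusted p = 0.0466) was lost under 6 of the alternatives, with 0.398 without course 3.

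RGS proteins speed the return of G proteins to their inactive state, and 6 of the 11 tested were higher and 3 lower at 96 h, against 43.6% of all genes called, with a median log2 change of 0.73. RGS10 read 363.9, 418.2 and 386.6 at 0 h and 1494.6, 1358.1 and 1203.9 at 96 h, with 482.7 and 588.3 in the control course. Its log2 change was 1.75 (SE 0.10, adjusted p = 5.17e-10), and it was also called at 24 h (0.83, adjusted p = 0.000121), when it read 676.2 to 757.4. Its arrays already lay above those of 0 h at 8 h, where they read 427.5 to 451.5, and at 16 h, with 507.2 to 640.1, while the control course read 584.2 at 8 h and 561.8 at 16 h. Its difference from the control course was 1.47 (adjusted p = 0.000165), but 0.65 (adjusted p = 0.197) when its 3 probe sets were averaged. RGS16 rose from 44.7 ± 22.4 to 189 ± 33.5 and RGS2 from 238 ± 22.1 to 805 ± 50.1, log2 changes of 1.80 and 1.69 (adjusted p = 8.14e-06 and 1.48e-07). The differences of these 2 from the control course (1.75, adjusted p = 0.0215, and 1.03, adjusted p = 0.0424) were lost without course 2 (0.139 and 0.160) or without course 3 (0.101 and 0.1004). That of RGS2 was also lost with 4 added to the signal (0.0512), with no filter (0.0566), after median centring (0.0868) and without the trend in eBayes (0.0560). RGS19 fell from 76.9 ± 31.6 to 32.8 ± 1.01 (log2 change -0.88, adjusted p = 0.00554). RGS17 had a log2 change of -0.92 (adjusted p = 0.0154, and 0.130 and 0.0624 without courses 2 and 3), and its difference from the control course (-1.61, adjusted p = 0.0780) was called once the course was a block (0.00756). RGS20 was higher at 24 h (log2 change 0.87, adjusted p = 0.0112) and at 48 h (0.99, adjusted p = 0.000625), where it read 286 ± 57.1 against 138 ± 43.7 at 0 h. At 96 h its log2 change was -0.53 (adjusted p = 0.0322, and 0.259 and 0.0903 without courses 2 and 3), but -0.23 (adjusted p = 0.359) with its kept probe sets averaged. Its control course read 192.7 at 0 h and 138.2 at 96 h, a difference between the arms of -0.097.

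The receptors' targets held calls in both directions. Of 7 tested adenylyl cyclases, the enzymes that make cAMP, 1 was higher and 2 lower at 96 h, or 42.9% called against 43.6% of all genes. ADCY1 rose from 259 ± 32.0 to 454 ± 96.9 (log2 change 0.76, adjusted p = 0.00102), while ADCY9 fell from 204 ± 30.7 to 95.7 ± 6.004 and ADCY3 from 68.9 ± 12.5 to 27.2 ± 2.12 (both -0.97, adjusted p = 4.28e-05 and 3.56e-05). The control course of ADCY1 read 301.7 and 429.8 at these times, and the difference between the arms was 0.27 (adjusted p = 0.687), while that of ADCY3 was -0.58 (adjusted p = 0.231). ADCY9 differed from the control course (-1.32, adjusted p = 0.00684, and 0.0557 without course 3), where it read 208.1 at 0 h and 269.5 at 96 h. The 1 tested potassium channel gene of the GIRK family, KCNJ5, had a log2 change of 0.12 (adjusted p = 0.717). Of 5 calcium channel genes, CACNB3 had a log2 change of 0.91 and CACNB2 one of -0.55. The call of CACNB3 (adjusted p = 0.0155) was lost without courses 2 or 3 (0.138 and 0.0570), and its difference from the control course (1.13, adjusted p = 0.233) was called once the course was a block (0.00705). The call of CACNB2 (0.00212) was lost without course 2 (0.0865) and with its probe sets averaged (0.688). PTPN11, the phosphatase SHP-2, had a log2 change of -0.44 (adjusted p = 0.0442, and 0.122 and 0.204 without courses 2 and 3).

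GRK5, a kinase that phosphorylates active G protein-coupled receptors, had the largest log2 change of the 76 genes at 96 h, close to that of SCG3. It read 106.3, 96.2 and 147.0 at 0 h and 376.8, 316.3 and 230.6 at 16 h. By 24 h it had reached 740.7, 604.0 and 406.8, and by 96 h 1705.0, 1538.6 and 1184.8. Its arrays parted from those of 0 h at 16 h, and SSTR2 arrays did so at 48 h. The log2 change of GRK5 at 96 h was 3.50 (SE 0.22, adjusted p = 1.15e-09), and the control course stayed between 145.8 and 229.1, a difference between the arms of 3.43 (adjusted p = 8.75e-05). GRK3 rose from 137 ± 45.6 to 246 ± 11.8 (adjusted p = 0.00117, and 0.0763 without course 2) and GRK4 from 22.2 ± 6.37 to 58.4 ± 6.91 (adjusted p = 0.00665). The control course of GRK4 read 16.7 and 41.6, and the difference between the arms was 0.16 (adjusted p = 0.905), while that of GRK3 was 0.67 (adjusted p = 0.264). SAG, the arrestin of photoreceptors, fell from 96.5 ± 42.8 to 30.1 ± 8.16 (log2 change -1.24, adjusted p = 0.00255), and the control course also went from 36.0 to 15.1. In all, 3 of the 8 tested receptor kinases and arrestins were higher and 1 lower, against 43.6% of all genes called at 96 h.

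Among the 3 tested receptor scaffolds, MPDZ rose from 406 ± 10.1 to 590 ± 28.0 (log2 change 0.52, adjusted p = 0.000799), while the control course went from 331.6 to 562.7. NHERF1 had a log2 change of -1.13 (adjusted p = 0.00612, and 0.0678 and 0.0527 without courses 2 and 3). Of 12 genes for protein kinase A and CREB, 2 were higher and 2 lower, or 33.3% called against 43.6% of all genes. CREBBP, a coactivator of CREB, rose from 653 ± 100.1 to 1021 ± 20.7 (adjusted p = 0.000293). CREB1 had a log2 change of 0.72 (adjusted p = 0.00137, and 0.0538 without course 2) and PRKAR2B one of -0.97 (adjusted p = 0.00141, and 0.0542 without course 2). CREM read 288 ± 16.7 and 161 ± 15.3, a log2 change of -0.78 (adjusted p = 3.34e-05). However, 4 of its other probe sets moved the opposite way, and the average of all its 6 kept probe sets gave 0.0045 (adjusted p = 0.979). Of the 30 signalling genes named here and called at 96 h, 11 differed from the control course, against 13.7% of all tested genes. For the others that difference did not pass the test. The genes were named for their shOTX2 change at 96 h, which is part of this difference, so nothing is read from the count.

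**Figure D3:**
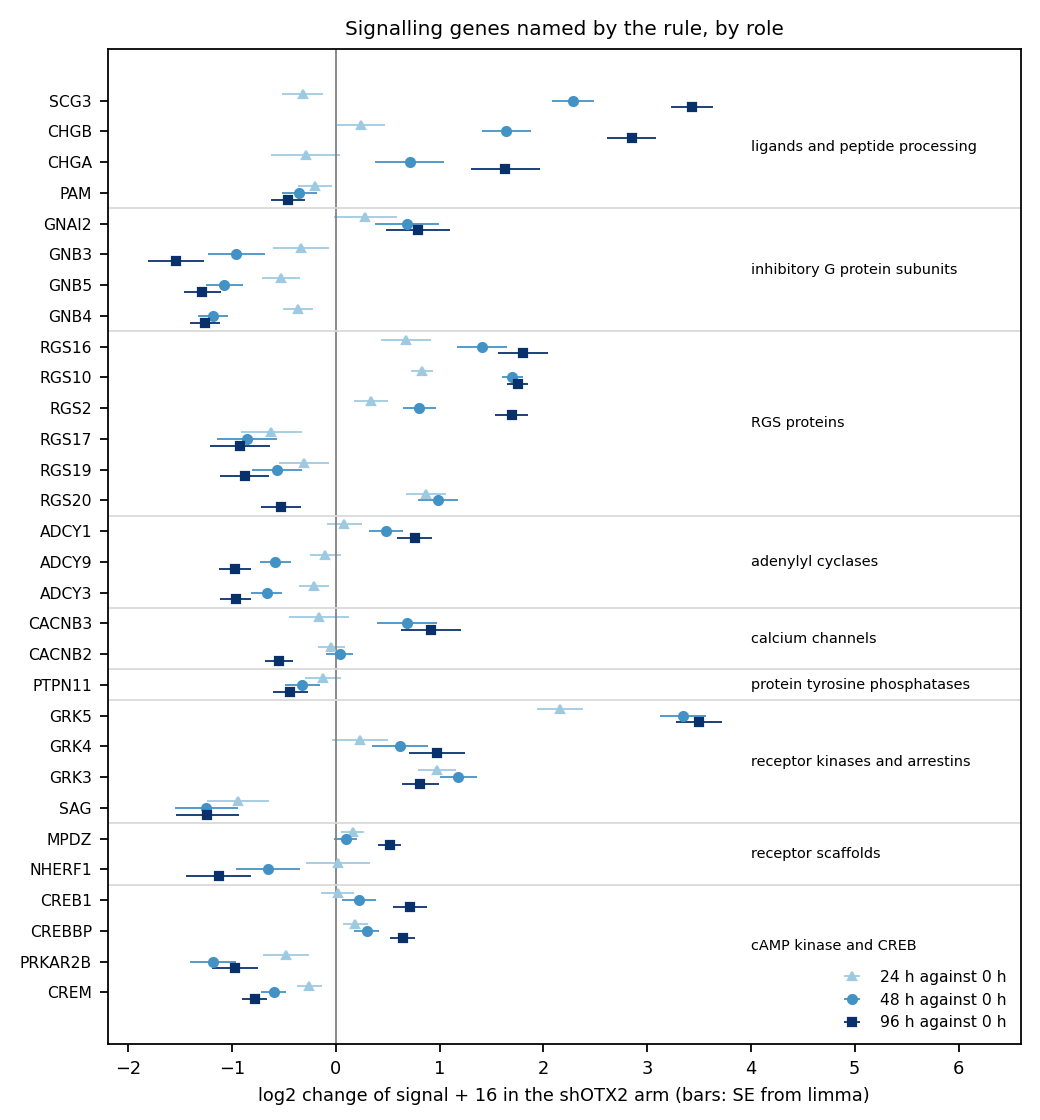
Log2 change of signal + 16 from 0 h in the shOTX2 arm for the called signalling genes with the largest changes in each role, with the SE of the limma fit (n = 3 arrays per time). Triangles are 24 h, circles 48 h and squares 96 h; GRK5 (3.50) and SCG3 (3.43) lie furthest right at 96 h and GNB3 (-1.54) furthest left.

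Of 30 other neuropeptide genes, 28 could be matched and 12 entered the tests. At 96 h 3 of the 12, or 25.0%, were called, against 43.6% of all genes: TAC3 was higher (0.54, adjusted p = 0.0233) and NMU (-0.92, adjusted p = 0.00270) and PMCH (-0.80, adjusted p = 0.0279) lower. CRH, the corticotropin-releasing hormone gene, was the 1 called at 48 h (0.89, adjusted p = 0.00943), against 33.3% of all genes, where its signal was 22.6 ± 2.28 against 5.30 ± 6.01 before induction, and it was back at 3.33 ± 1.59 by 96 h. None of the 3 calls at 96 h was kept without course 2 (adjusted p = 0.0783, 0.0970 and 0.183). After median centring of the arrays TAC3 was no longer called, and all 3 genes then called at 96 h were falls.

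Among 36 related peptide receptors, 35 could be matched and 14 entered the tests, with 1 higher and 2 lower at 96 h, or 21.4% called against 43.6% of all genes. CCKBR, the brain receptor for cholecystokinin, read 192.4, 115.5 and 134.8 at 0 h, 60.5, 54.9 and 41.0 at 24 h, and 9.6, 22.8 and 16.6 at 96 h, and did not overlap its 0 h arrays at either time. Its log2 change was -2.33 (SE 0.25, adjusted p = 5.60e-07), against 135.1 and 166.6 in the control course, a difference between the arms of -2.61 (adjusted p = 0.00190). ADCYAP1R1, the receptor for the peptide PACAP, which raises cAMP, fell from 493 ± 116 to 107 ± 21.2 (log2 change -2.05, adjusted p = 2.69e-06). Its difference from the control course (-1.66, adjusted p = 0.0332) was lost without course 2 or 3 (0.110 and 0.0773). CRHR1 had a log2 change of 0.68 (adjusted p = 0.0115, and 0.0789 and 0.0730 without courses 1 and 2).

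The genes next to each member on its chromosome, 3 tested genes on each side, were read from the RefSeq gene order. Of these 30 genes, 6 were higher and 4 lower at 96 h, or 33.3%, against 43.6% of all genes, and after median centring 5 and 7. With the time course as a block 8 were higher and 7 lower. The 5 genes it added were BCL6 and LPP beside SST (adjusted p = 0.0183 and 0.0102), MIPOL1 beside SSTR1 (0.00849), MTNAP1 beside SSTR2 (0.0196) and CHTF18 beside SSTR5 (0.0227). Beside SSTR2, on chromosome 17, 2 of 6 were called. SLC39A11, a zinc transporter gene, read 114.3, 144.5 and 167.3 at 0 h, 352.5, 359.0 and 358.0 at 48 h and 451.8, 392.3 and 404.3 at 96 h, a log2 change of 1.46 (SE 0.13, adjusted p = 4.78e-08). In the control course it read 150.0 and 190.8, and the difference between the arms (1.15, adjusted p = 0.00535) was lost without course 2 (0.0504). COG1, on the other side, had a log2 change of 0.55 (adjusted p = 0.0242, and 0.111 and 0.182 without courses 2 and 3, and 0.0991 after median centring). CASC17, LINC02097, VCF1 and MTNAP1 were not called, and the highest of their changes was 0.24. This was the change of MTNAP1, at an adjusted p of 0.0502, and it was called with the block, with quantile normalization (0.0165) and with 4 or 64 added to the signal (0.0494 and 0.0482). Each of these changes was smaller than the 5.62 of SSTR2, but SSTR2 was chosen for its large rise, so nothing is read from this.

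Beside SSTR1, on chromosome 14, 4 of 6 genes were called, against 43.6% of all genes. FOXA1, a forkhead transcription factor gene, rose from 16.1 ± 2.47 to 111 ± 16.1 (log2 change 1.98, adjusted p = 1.42e-07), SLC25A21-AS1 changed by 1.36, TRAPPC6B by 0.90 and GEMIN2 by -0.61. The difference from the control course was called for FOXA1 (1.51, adjusted p = 0.0117) and TRAPPC6B (0.87, adjusted p = 0.0238), and for neither without course 2 (0.0696 and 0.108) or 3 (0.0769 and 0.141). That of SLC25A21-AS1 (1.15, adjusted p = 0.0545) was called once the course was a block (0.0389), and that of GEMIN2 was -0.16 (adjusted p = 0.737), with 274.5 and 196.8 in the control course. Beside SST, on chromosome 3, RFC4, a DNA replication gene, fell from 1156 ± 36.1 to 470 ± 65.8 (log2 change -1.28), RPL39L changed by -0.98 and ST6GAL1 by 1.15, and CLDN1 by -0.57 (adjusted p = 0.0442, and 0.175 and 0.346 without courses 1 and 2). The control course read 150.4 and 77.7 for RPL39L and 160.1 and 229.5 for ST6GAL1, and their differences between the arms were -0.16 (adjusted p = 0.813) and 0.67 (adjusted p = 0.110). That of RFC4 (-0.85, adjusted p = 0.0419) was lost without course 2 or 3 (0.0932 and 0.110). Limma called 0 of the 12 genes beside SSTR3 and SSTR5, against 43.6% of all genes, and 1 of the 12 had an unadjusted p under 0.05. CHTF18 (-0.51, adjusted p = 0.0923) was called with the block, as above, after median centring (0.0391), with quantile normalization (0.0241) and without course 2 (0.0245).

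The tested genes whose log2 values over the 24 arrays were most like those of SSTR2 were FNDC5 (Pearson r 0.989), KCNC1 (0.988), TP53INP1 (0.985), PKDCC (0.985), CNTN2 (0.984), SOCS1 (0.984), PREX1 (0.981), SLC7A7 (0.980), PCDHB15 (0.979) and ATP2A1 (0.979). FNDC5, which encodes the precursor of irisin, went from 30.3 ± 9.62 before induction to 75.9 ± 6.09 after 24 h, 957 ± 105 after 48 h and 1681 ± 470 after 96 h. KCNC1, a voltage-gated potassium channel gene of fast-firing neurons, went from 4.77 ± 5.57 to 17.8 ± 2.71, then 230 ± 71.7 and 631 ± 112 over the same times. TP53INP1, a gene known as a p53 target, started higher and changed less, from 282 ± 32.1 at 0 h to 1836 ± 105 at 96 h. These genes were picked for their likeness to SSTR2, so a similar course over time was fixed by the choice and nothing is read from it. Their mean log2 changes at 24 h ran from 0.24 for PREX1 to 1.45 for SLC7A7, with 0.66 for SSTR2. The r values describe arrays that share time, scaling and RNA.

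For SSTR1, read on probe set 235591_at, the most like genes were LPXN (r 0.899), KIAA0408 (0.885), SS18L1 (0.884), SCN3A (0.882) and CLHC1 (0.881). This probe set was above the array median on 3 of 24 arrays, so these r values rest mostly on dim signals. The other SSTR1 probe set did not pass the filter and was not used for them. Its mean in the shOTX2 arm was 3.23 at 0 h and 1.07 at 96 h. SCN3A, a neuronal sodium channel gene, read 10.9 ± 10.1 at 0 h and 602 ± 132.9 at 96 h. For SSTR3 they were PTGR2 (0.762), JOSD2 (0.743), LINC02091 (0.675), SIRPD (0.644) and ACHE (0.630), a weak likeness over a narrow range of dim values.

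**Figure D4:**
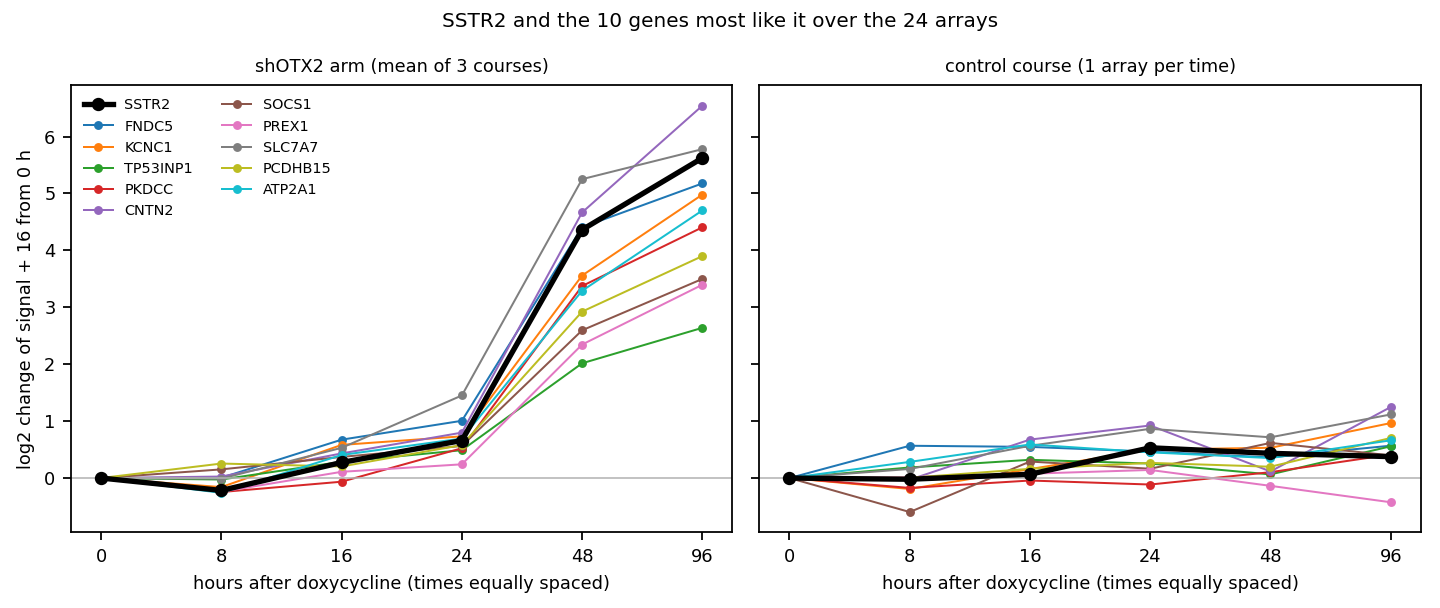
Log2 change of signal + 16 from 0 h for SSTR2 (black) and the 10 genes most like it over 24 arrays, as the mean of 3 courses in the shOTX2 arm on the left and as single arrays of the control course on the right, with times equally spaced. SSTR2 reaches 0.66 at 24 h, 4.36 at 48 h and 5.62 at 96 h on the left and 0.38 at 96 h on the right.

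Markers of other cells were read beside these results. Of 5 fibroblast markers, 4 were tested and 3 were higher at 96 h, against 21.1% of all genes called higher. The summed signal of the 5 was 39.2 to 73.5 at 0 h and 156.1 to 308.5 at 96 h in the shOTX2 arm, and 71.1 to 111.6 in the control course. COL3A1 read 4.60 ± 4.06 and 77.7 ± 53.5, PDGFRB 23.0 ± 9.15 and 96.6 ± 35.6, and COL1A2 3.4 ± 3.36 and 18.7 ± 7.29. DCN read 15.3 ± 6.57 and 12.2 ± 5.37 and LUM 6.97 ± 4.31 and 13.2 ± 0.721. Between these times the fibroblast sum in the shOTX2 arm was 92.0 to 94.9 at 8 h, 44.8 to 82.2 at 16 h, 66.5 to 83.8 at 24 h and 99.9 to 153.3 at 48 h. This sum and SSTR2 were both higher at 96 h than at 0 h. The part of the fibroblast markers in the rise of SSTR2 was not tested. Over all 24 arrays, the summed signal of 3 immune markers stayed under 50, and that of 4 endothelial and of 3 astrocyte markers under 60. The 7 markers of group 3 medulloblastoma, the subgroup with OTX2 among its markers, summed to 11805 to 13169 at 0 h, to 9246 to 9731 at 96 h and to 13498 to 15830 in the control course. Of the 6 tested, 1 was called higher at 96 h and 2 lower, against 21.1% and 22.5% of all genes. CRX had a log2 change of 1.24, MYC one of -0.71 and IMPG2 one of -0.82. The sum is weighted to bright genes, as MYC had a mean of 5023 at 0 h and CRX one of 143. The ratio of 3′ to 5′ actin probe sets, a sign of RNA quality, was 1.31 to 1.51 in course 1 and 1.30 to 1.55 in the control course, against 1.82 to 2.36 in course 2 and 1.87 to 2.02 in course 3. The log2 change of SSTR2 at 96 h was 6.02 in course 1, 5.80 in course 2 and 5.04 in course 3, and its relation to RNA quality was not tested.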

How the data were processed

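The authors deposited 1 linear MAS5 intensity for each probe set and array. Per the submitters' processing notes they used MAS5 and GCOS, and the versions are not given in the sources used here. On every array the deposited intensity has a trimmed mean between 100.011 and 100.014 with the outer 2% at each end left out, so a change common to most genes cannot be seen. No detection calls were used here. Arrays have no read depth, and their number limits the precision.

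Groups, times and course numbers came from the labels, and all 24 arrays were used. Probe set names came from the platform's annotation table, with 42898 of 54675 entries: 41091 have 1 symbol, 1801 have several and were not used by name, and 11777 are unnamed here. Entrez IDs were used to update 41037 symbols. Probe sets above the median of their array in at least 3 arrays were kept, and the one with the highest mean stood for its gene, which gave 13903 genes, 7014 of them with several kept probe sets. The 62 control probe sets were left out of the tests.

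Tests used limma 3.58.1 in R 4.3.3 on log2(signal + 16), fitting the means of the 12 groups over all 24 arrays (lmFit) with a trended eBayes. P-values were adjusted by Benjamini-Hochberg over all 13903 genes and called under 0.05. There were 12 residual degrees of freedom, all from the shOTX2 groups, and each control array was assumed to vary like them. The labels call the 3 courses independent but do not name separate cultures, so p-values measure the spread between these courses. The fit was tested on simulated data.

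The members and gene lists were chosen with earlier results of these data known. No test was made on the members, and lists are described by counts beside those over all genes. Named were, in each list, up to 3 called genes each way with the largest change at 96 h and the same sign in all courses, the neighbouring genes, CORT and SSTR4, and the genes most like a member by Pearson r (10 for SSTR2 and 5 for others). The fibroblast markers, CRX, MYC, IMPG2, KCNJ5 and OTX2 are named outside this rule.

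Same-numbered arrays deviated together from their group means in 45 of 45 pairs of times (r across genes 0.157 to 0.556, median 0.243), so a replicate block for the course, with 10 residual degrees of freedom, was an alternative. Others were pseudocounts of 4 and 64, no filter, median centring, quantile normalization, the mean of a gene's kept probe sets, shOTX2 arrays only, eBayes without a trend, and leaving out each course. Upstream windows came from the RefSeq table of GRCh38.p14 and matched all 5 genes.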

Additional observations from a re-analysis of the deposited data

Results flagged for a closer look

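The change from 0 to 96 h differed between the shOTX2 arm and the control course by limma's test of the difference for 13 signalling and receptor genes and 4 neighbouring genes named in the text, on the log2 scale and with 1 control array at each time. It was larger in the shOTX2 arm for GRK5 (3.43), CHGB (2.75), SCG3 (2.13), RGS16 (1.75), RGS10 (1.47) and RGS2 (1.03). It was lower in the shOTX2 arm for CCKBR (-2.61), GNB3 (-2.26), GNB5 (-1.75), ADCYAP1R1 (-1.66), ADCY9 (-1.32), PAM (-1.22) and CACNB2 (-1.09). Of the neighbouring genes it was larger for FOXA1 (1.51), SLC39A11 (1.15) and TRAPPC6B (0.87) and lower for RFC4 (-0.85). Without course 2 the difference was no longer called for GNB3, PAM, CACNB2, RGS16, RGS2, ADCYAP1R1 and the 4 neighbouring genes, and without course 3 for ADCY9, RGS16, RGS2, ADCYAP1R1, FOXA1, TRAPPC6B and RFC4. With the probe sets of a gene averaged it was not called for RGS10, CACNB2 and ADCYAP1R1. That of RGS2 was also not called with a pseudocount of 4, no filter, median centring or eBayes without a trend, that of FOXA1 with a pseudocount of 4, and that of RFC4 with no filter or eBayes without a trend. The differences of GRK5, CHGB, SCG3, CCKBR and GNB5 were called under every alternative run. Limma called this difference for 13.7% of all tested genes. The 13 signalling and receptor genes were named for their shOTX2 change at 96 h, which is part of it, so nothing is read from their count.

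On 2 member probe sets all 3 shOTX2 courses moved one way and the control course the other, and the difference was not tested. SSTR1 235591_at changed by 1.14 on average in the shOTX2 arm and by -0.13 in the control course. SSTR3 214491_at changed by -0.41 in the shOTX2 arm and by 0.063 in the control course, and was above the array median on 1 of 24 arrays.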

How the results depend on the processing

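The log2 change of SSTR2 at 96 h was 6.15 with a pseudocount of 4, 4.52 with 64 and 5.06 as the mean of its probe sets, and 5.42 to 5.91 when 1 course was left out. With the course as a replicate block, 2129 genes were called at 24 h in place of 855, 3608 in place of 1906 for the difference between the arms, and 13 in place of 7 signalling genes at 24 h, and no call of a named gene at 96 h was lost. When 1 course was left out, the genes called numbered 81 (without course 2) to 781 at 24 h, with 319 without course 3, 2675 (without course 2) to 4869 at 48 h, with 2996 without course 3, 4207 to 6167 at 96 h, and 873 (without course 2) to 2648 for the difference between the arms. The signalling genes called numbered 2 to 8 at 24 h, 23 to 37 at 96 h and 7 to 18 for the difference between the arms, and the neuropeptides 0 (without course 2, with 2 at an unadjusted p under 0.05, and 1 without course 3) to 3. Median centring of the arrays shifted the median change of all genes at 96 h to -0.12, with 2346 genes higher and 3748 lower in place of 2937 and 3128, and at 48 h 1645 higher and 2962 lower in place of 2264 and 2370. CREM at 96 h went from -0.78 to 0.0045 (limma adjusted p = 0.979) with its probe sets averaged. Of 46 named genes called at 96 h, neighbouring genes included, 28 were called under every alternative run, and the most calls, 16, were lost without course 2. The SSTR1 change ranged from 0.41 to 2.27 with the pseudocount. Signals under the array median on most arrays limit what can be said of SST, SSTR1, SSTR5 and SSTR3 214491_at, and SSTR3 1553178_a_at was also dim. The cause of these changes was not tested.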
